A study of Mus musculus with 4 samples.

Results

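Early growth response (EGR), NR4A and IER genes are 3 families of immediate early genes, and 9 of them, Egr1, Egr2, Egr3, Nr4a1, Nr4a2, Nr4a3, Ier2, Ier3 and Ier5, were followed here in sorted dendritic cells from KO and WT mouse spleen. The 9 were found among 17300 genes of the deposited table by matching each Ensembl identifier to a symbol. They were chosen by measured values, the log2 differences between KO and WT in this same table, so their differences between KO and WT are described with no test and support nothing. By the mean of all 4 libraries, all 9 lay above the filter on low values that left 11864 genes for the fit. Egr2 passed only through its KO values (mean 9.40), since its WT mean of 8.76 was less than 1 log2 unit above the lowest value. Each of the 9 had 1 row in the table.

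The groups were 2 libraries of genotype KO (titles beginning with EKO) and 2 of genotype WT, each made from total RNA of dendritic cells obtained by flow sorting from spleen, with a stranded kit for very small inputs. The series title names Siglec-E, an inhibitory receptor of myeloid cells that binds sialic acid, and its place in antigen-presenting cell activation and transplant rejection. Taken with the title, KO against WT asks what splenic dendritic cells express without it. The deleted gene, the strain, the age, how the knockout was made and whether a group held separate animals are absent from the labels used here. Each column name starts with the word Allo, whose meaning those sources leave unexplained, and any treatment of the animals is likewise not given. The p-values printed here measure only the spread between these libraries, which may be technical.

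Immediate early genes are transcribed within minutes of a signal by factors that are already present in the cell, so no new protein has to be made first. EGR proteins are zinc-finger transcription factors that bind GC-rich sites, NR4A proteins are orphan nuclear receptors that work without a known natural ligand, and IER proteins are small, short-lived regulators of survival, stress and phosphatase activity. In antigen-presenting cells the same genes respond to antigen, pathogen and adhesion signals, and NR4A receptors are known from mice to restrain inflammatory output and to take part in dendritic cell migration.

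Values are the authors' log2 values after variance stabilization, on which the lowest value is 8.04, and counts are normalized read counts recovered by undoing that transform. These counts summed to between 30274060 and 30952251 in the KO libraries and between 29002408 and 29377044 in the WT libraries, after the authors' scaling. Siglece was at 8.92 (KO A) and 8.96 (KO B), compared with 10.38 (WT 1) and 10.14 (WT 2) (adjusted p = 0.0138, limma with Benjamini-Hochberg adjustment over all genes). The library KO A stood apart in Y-linked RNA, with Ddx3y at 8.74 there, compared with 12.13 (KO B), 11.82 (WT 1) and 11.97 (WT 2). Class II genes that dendritic cells express strongly were the highest of the conventional dendritic cell list, with Cd74 at 17.57 and 17.46 in KO, against 17.84 and 17.86 in WT. Of all genes, 557 were higher and 265 lower in KO at an adjusted p under 0.05, the threshold used throughout, or 366 and 282 after quantile normalization. Without KO A 0 genes passed in limma (2508 at an unadjusted p under 0.05) and without KO B only Ddx3y, Eif2s3y and Kdm5d passed, all 3 Y-linked and lower (2448 at an unadjusted p under 0.05), so every call printed here, higher or lower, is lost when either KO library is left out.

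Promoters of the NR4A genes and of Egr2 are printed because the cAMP response element and the CArG box, the sites of the factors CREB and SRF, are the best known routes to these genes. They are RefSeq sequences of build GRCm38.p6, 250 bases up to the transcription start, on the strand of the gene, and lie at chr15:101266596-101266845 (plus strand) for Nr4a1, chr2:57124004-57124253 (minus strand) for Nr4a2, chr4:48045055-48045304 (plus strand) for Nr4a3 and chr10:67537619-67537868 (plus strand) for Egr2. The submitters' processing notes name GRCm39, to which these coordinates were not converted. Capitals mark the shorter motif of the cAMP response element (TGACG, or CGTCA where it lies on the other strand) and, in Egr2, the CArG box.
Nr4a1 promoter: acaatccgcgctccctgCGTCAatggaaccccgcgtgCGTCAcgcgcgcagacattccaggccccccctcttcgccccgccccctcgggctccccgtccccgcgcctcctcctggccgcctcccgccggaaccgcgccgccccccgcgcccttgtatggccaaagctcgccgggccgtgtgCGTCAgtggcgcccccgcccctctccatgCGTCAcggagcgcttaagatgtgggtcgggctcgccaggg
Nr4a2 promoter: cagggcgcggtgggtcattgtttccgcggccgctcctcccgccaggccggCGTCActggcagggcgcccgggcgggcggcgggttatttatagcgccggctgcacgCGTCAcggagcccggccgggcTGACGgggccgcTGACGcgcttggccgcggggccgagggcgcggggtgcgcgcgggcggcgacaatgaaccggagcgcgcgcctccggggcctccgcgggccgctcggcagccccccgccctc
Nr4a3 promoter: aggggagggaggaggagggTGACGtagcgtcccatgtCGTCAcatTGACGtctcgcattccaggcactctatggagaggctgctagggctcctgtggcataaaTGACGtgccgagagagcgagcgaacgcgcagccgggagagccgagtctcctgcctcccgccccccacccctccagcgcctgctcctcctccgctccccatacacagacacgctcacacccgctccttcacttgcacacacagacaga
Egr2 promoter: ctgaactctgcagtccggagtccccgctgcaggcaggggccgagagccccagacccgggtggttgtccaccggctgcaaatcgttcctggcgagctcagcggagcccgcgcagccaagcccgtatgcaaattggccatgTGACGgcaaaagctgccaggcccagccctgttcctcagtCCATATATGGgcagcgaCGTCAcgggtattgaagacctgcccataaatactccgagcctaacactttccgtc
Each NR4A promoter held 4 such motifs and that of Egr2 held 2, while those of Ier3 and Ier5, read but not printed, held 0. Of 32841 RefSeq promoter windows of the same length, 17.8% held at least 1. The share with 4 was not counted, so nothing is read from the number of motifs. G and C made up 63.6% (Nr4a3) to 80% (Nr4a2) of the NR4A promoters. In Nr4a1 the motifs began 233, 213, 69 and 40 bases before the start, in Nr4a2 at 200, 144, 123 and 111, in Nr4a3 at 231, 213, 205 and 147, and in Egr2 at 111 and 55. The CArG box of Egr2 lay 72 to 63 bases before the start, and 1.47% of windows held one on either strand. An NF-kB site was found in Ier3 (7.25% of windows) and TATAA, read on both strands, in Ier3, Ier5 and Nr4a2 (22.8% of windows). The complete cAMP response element TGACGTCA (1.55% of windows), the EGR site GCGTGGGCG (0.536%) and the NR4A monomer site AAAGGTCA (1.34%) were not in any of the 6 promoters read, on either strand. A match describes letters only, and the start used in these cells was not measured: the start of the longest coding transcript in GENCODE M21 lay 12577 bases from the RefSeq start for Nr4a1 and 8965 bases for Nr4a2, and RefSeq lists 5 starts for Egr2. Egr1, Egr3 and Ier2 are named only.

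The EGR family was higher in KO, with Egr1 showing the widest gap between the groups of all 9 genes. Egr1, the best studied EGR factor and a quick reporter of MAP kinase signalling, was at 12.11 (KO A) and 12.61 (KO B), compared with 9.60 (WT 1) and 10.40 (WT 2). Both KO libraries lay above both WT libraries, and the lower KO library had 4.46 times the counts of the higher WT library. Mean counts were 4814 in KO and 607 in WT, 7.93-fold higher in KO, with a log2 difference of 2.36 (SE 0.274, n = 2 each). The fold was 14.2 against WT 1 alone and 5.49 against WT 2 alone. Egr2, which with Egr3 limits T cell activation, was weakly expressed, at 9.29 (KO A) and 9.50 (KO B), compared with 8.71 (WT 1) and 8.81 (WT 2). Here the WT libraries nearly coincided on the log2 scale, but in counts WT 2 had 1.35 times WT 1. The groups did not overlap. In counts Egr2 had 213 and 292 in KO and 57.9 and 78.0 in WT, 3.72-fold higher in KO, which the log2 difference of 0.63 (SE 0.101) understates because values near the floor are compressed. Egr3 was at 10.55 (KO A) and 10.94 (KO B), compared with 9.31 (WT 1) and 9.87 (WT 2). The groups did not overlap, WT 1 was the lowest library, and counts were 3.56-fold higher in KO (log2 difference 1.15, SE 0.208).

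**Figure D1:**
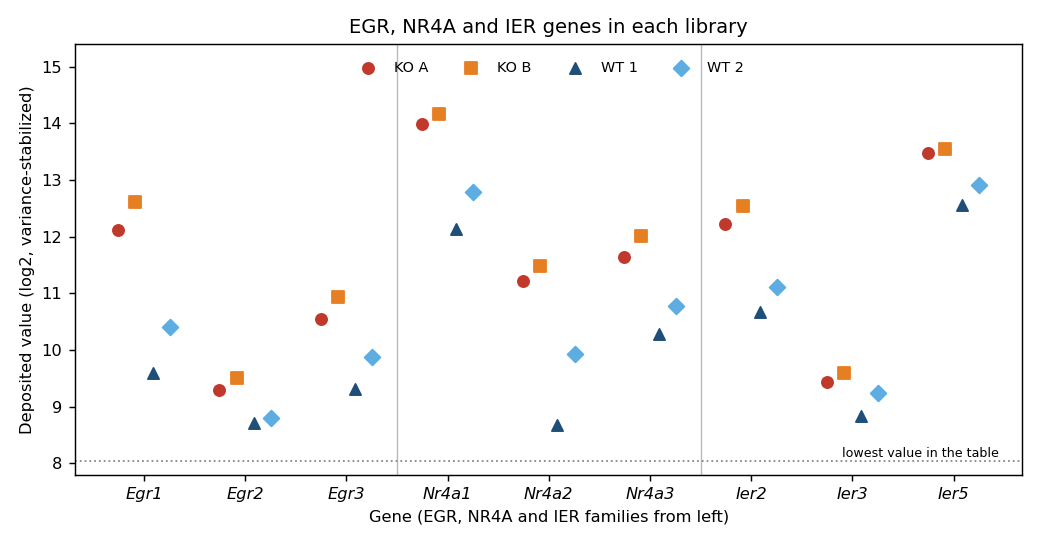
Deposited log2 value (vertical axis, variance-stabilized) of each of the 9 genes in each library, KO A and KO B left of WT 1 and WT 2, with families separated by grey lines and the lowest value of the table, 8.04, dotted. In every gene both KO points lie above both WT points, and WT 1 is the lowest point.

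All 3 NR4A receptors were higher in KO, and Nr4a2 was the gene in which the WT libraries differed most. Nr4a1 (Nur77), a receptor widely used as a reporter of antigen receptor signalling and needed by patrolling monocytes in mice, was at 13.99 (KO A) and 14.16 (KO B), compared with 12.13 (WT 1) and 12.78 (WT 2). The groups did not overlap, and mean counts were 16794 in KO and 5253 in WT, 3.20-fold higher in KO (log2 difference 1.62, SE 0.201). Nr4a2 (Nurr1), best known for its part in dopamine neurons, was at 11.21 (KO A) and 11.48 (KO B), compared with 8.67 (WT 1) and 9.93 (WT 2). WT 1 lay near the floor with 52.2 counts and WT 2 had 518, 9.94 times as many, while both KO libraries (1877 and 2356 counts) lay above them. The fold of Nr4a2 over WT thus depended on the WT library, at 40.6 against WT 1 and 4.08 against WT 2, with 7.42 against their mean (log2 difference 2.05, SE 0.365, and 1.42 without WT 1). Nr4a3 (NOR1), known in mice for the migration of dendritic cells to lymph nodes, was at 11.65 (KO A) and 12.01 (KO B), compared with 10.29 (WT 1) and 10.77 (WT 2). The groups did not overlap, and counts were 3.1-fold higher in KO (log2 difference 1.30, SE 0.184). Monocyte markers were higher in 7 of 11 in the same libraries, against 4.69% of all genes tested: Lyz2 rose by 0.78 and Ace by 0.73 (adjusted p = 0.0463 and 0.0242 in limma), and the part of monocytes in the Nr4a1 difference was not tested.

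The IER genes were higher in KO as well, and Ier5 and Ier3 had the smallest folds of the 9 genes. Ier2, a nuclear protein of the growth factor response, was at 12.23 (KO A) and 12.54 (KO B), compared with 10.67 (WT 1) and 11.11 (WT 2). The groups did not overlap, and counts were 3.40-fold higher in KO (log2 difference 1.5, SE 0.168). Ier3 (IEX-1), which modulates cell survival and prolongs ERK activity, was at 9.44 (KO A) and 9.60 (KO B), compared with 8.83 (WT 1) and 9.24 (WT 2). Its lower KO library lay 0.19 log2 units above WT 2, the narrowest gap of the 9, and without WT 1 its log2 difference was 0.27 in place of 0.48 (SE 0.147). Ier3 counts were 2.18-fold higher in KO than in WT. Ier5, which activates the heat shock factor HSF1 by bringing it together with the phosphatase PP2A, was at 13.47 (KO A) and 13.54 (KO B), compared with 12.56 (WT 1) and 12.91 (WT 2). These KO libraries were the closest pair of the 9 genes, the groups did not overlap, and counts were 1.75-fold higher in KO (log2 difference 0.77, SE 0.123).

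Across the 9 genes the libraries fell in 1 order, with KO B highest, then KO A, then WT 2, then WT 1. That order held for 9 of 9 genes and for 9.68% of all genes tested, and the 2 groups stood apart with KO higher in 9 of 9, against 28.1% of all genes tested. In the fit across all genes 8 of the 9 were past the threshold as higher and 0 as lower, against 4.69% higher and 2.23% lower over all genes tested, and Ier3 was not among the 8. These counts follow from how the genes were chosen and nothing is read from them. Egr2, 1 of the 8, entered the fit only through its KO values. The median log2 difference of the 9 was 1.30, with a range of 0.48 to 2.36, and that of all genes tested was -0.00. Within KO, KO B exceeded KO A by 0.07 to 0.50, and within WT, WT 2 exceeded WT 1 by 0.11 to 1.25. In Egr2 the WT libraries were closer to each other than the KO libraries were, by 0.11 against 0.20, on a scale that compresses low values. In counts its ratios were alike, at 1.35 (WT 2 over WT 1) and 1.38 (KO B over KO A). Ranked by difference among the 11864 genes, Egr1 stood at 9, Nr4a2 at 14, Nr4a1 at 25, Ier2 at 34, Nr4a3 at 54 and Egr3 at 79, while Ier5, Egr2 and Ier3 stood at 227, 373 and 681. The differences ranged from 0.27 to 1.96 without WT 1, and from 0.68 to 2.76 without WT 2. In bulk RNA, more cells that express these genes and more RNA per cell cannot be told apart.

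**Figure D2:**
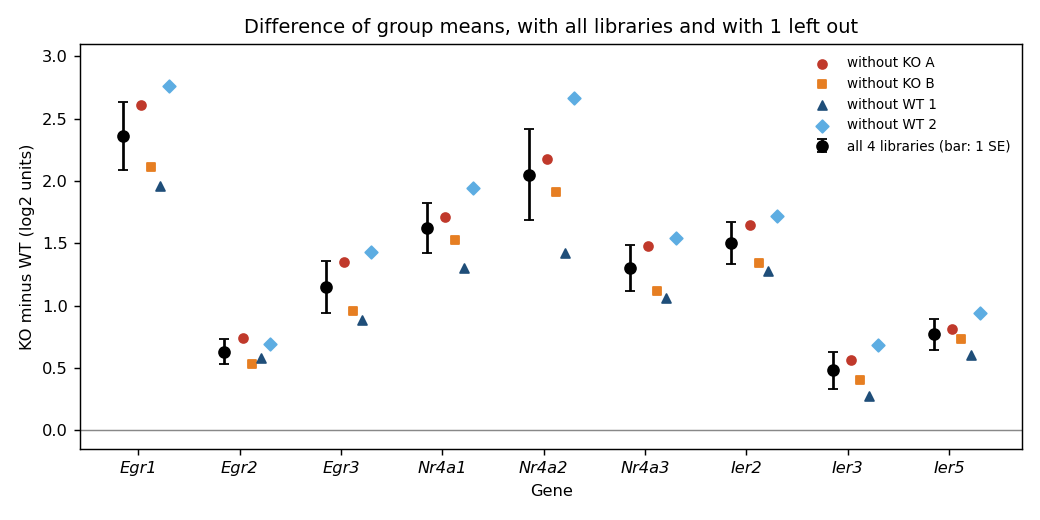
KO minus WT difference in log2 units (vertical axis) of each gene with all 4 libraries (black, bar of 1 SE) and with 1 library left out (coloured). Every difference stays above 0, which follows from groups that do not overlap, and for 8 of the 9 genes the lowest is the one without WT 1, such as 1.42 for Nr4a2; for Egr2 it is 0.53 without KO B.

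The genes of a family did not change in proportion, as counts per kilobase of transcript show. In the EGR family Egr1 made up 72.6% (KO A) and 73.0% (KO B), compared with 50.1% (WT 1) and 56.8% (WT 2). Egr3 took the smaller share in KO, 21.5% and 21.4%, against 36.9% and 35.5% in WT. Among the IER genes Ier2 held 44.3% and 48.5% in KO, against 29.8% and 32.3% in WT, and Ier5 held 52.0% and 47.4% in KO, against 67.3% and 62.8% in WT. These shares did not overlap between the groups, but they come from the same values by which the genes were chosen, so nothing is read from that. Among the NR4A genes Nr4a1 was dominant in every library, with 86.1% and 84.4% in KO, against 91.1% and 87.5% in WT. The share of Nr4a2 was 7.33% and 7.98% in KO, compared with 0.854% (WT 1) and 4.98% (WT 2). The shares of Nr4a1 and Nr4a2 did not overlap between the groups either, while those of Nr4a3 and Ier3 did.

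Per kilobase, Nr4a1, Ier5 and Ier2 were the most abundant of the 9 in all 4 libraries. Nr4a1 had 6173 and 6984 counts per kilobase in KO, against 1560 and 2555 in WT, and Ier5 had 3310 and 3485 in KO, against 1693 and 2192 in WT. In WT 1 Ier5 stood above Nr4a1, and in KO B Ier2 stood above Ier5 (3567 against 3485), so these neighbours did not keep their order. Egr1 came next in both KO libraries, with 871 and 1276 counts per kilobase, whereas in WT, at 75.4 and 195, it stood below Nr4a3 at 137 and 220. Egr2 was the lowest of the 9 in KO A, KO B and WT 2, at 71.7, 98.6 and 26.3. Nr4a2 was the lowest in WT 1, at 14.6, where Egr2 had 19.5.

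**Figure D3:**
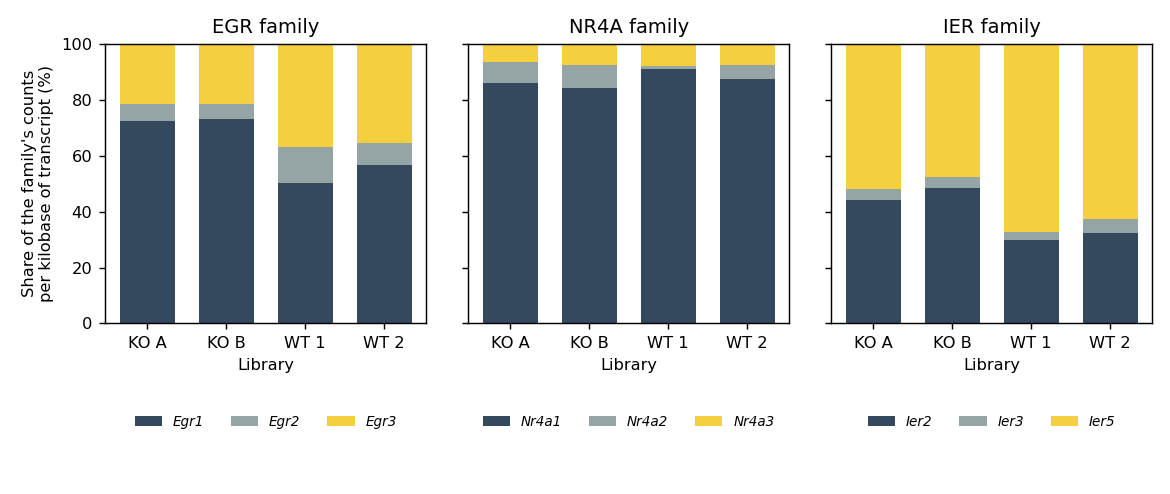
Share of each gene in the counts per kilobase of its family (vertical axis, percent), by library, KO A and KO B left of WT 1 and WT 2, for the EGR, NR4A and IER families. Egr1 and Ier2 take larger shares in both KO libraries (72.6% and 73.0% for Egr1) than in both WT libraries (50.1% and 56.8%), and Nr4a2 is almost absent from the WT 1 bar (0.854%).

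Most of the 9 genes are compact, a property that played no part in their choice. In GENCODE M21 each EGR gene has 2 exons and each NR4A gene 8, Ier2 and Ier5 have no intron, and Ier3 has 2 exons, against a median of 9 exons for tested genes with a coding transcript (11497 genes). The genes span 1240 bases (Ier3) to 41295 bases (Nr4a3), and 8 of 9 fall below the median span of 24338 bases. The AU-rich pentamer ATTTA, a mark of unstable mRNAs when it stands in the 3′ untranslated region, occurs 7 times in Egr3, 5 times in Nr4a3 and in Ier3, 3 times in Egr2, Nr4a1 and Nr4a2, 2 times in Ier5 and 0 times in Ier2, with Egr1 not read. The median of 11232 tested genes was 2, and 6 of the 8 members read were above it, as were 39.8% of these tested genes. None of the 9 overlaps another gene in that annotation.

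Regulators of the 9 genes, partners of their proteins and reported targets were called about as often as other genes. Of 61 genes in these lists, which were chosen with earlier results of these data known, 60 were tested. Past the threshold, 4 were higher and 1 was lower, against 4.69% and 2.23% of all genes. An unadjusted p under 0.05 in limma was reached by 19 of the 60. The share of all genes at that unadjusted level is not given here, so nothing is read from the 19. SRF, which binds the CArG box, and its cofactors gave 0 of 6 past the threshold: Srf differed by 0.01 (95% interval -0.24 to 0.27), Elk1 by -0.19, Elk3 by -0.13, Elk4 by -0.10, and Mrtfa and Mrtfb by -0.27 each (adjusted p between 0.105 and 0.959). The MAP kinase cascade from RAS to the RSK and MSK kinases gave 0 of 23, with a median of 0.02 and a range of -0.24 to 0.34. These are levels of mRNA and not of kinase activity, which was not measured.

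Among 6 CREB and CRTC genes 1 was higher and 5 did not pass, with a median of 0.06. For this list and the next, the shares of all genes tested were 4.69% higher and 2.23% lower. Crem, whose inducible isoform ICER represses cAMP response elements, was at 9.68 (KO A) and 9.68 (KO B), compared with 9.07 (WT 1) and 9.25 (WT 2). Crem rose by 0.52 with an SE of 0.0954 (adjusted p = 0.0328) and was 2.25-fold higher in counts, and Creb1 differed by -0.36 (adjusted p = 0.0586). Of 7 MEF2 factors and class IIa histone deacetylases, the switch that controls Nr4a1 in T cells, 1 rose, 1 fell and 5 did not pass, with a median of 0.20. Mef2d was at 12.57 and 12.45 in KO, against 11.96 and 12.07 in WT, and rose by 0.50 (adjusted p = 0.0314). Hdac9, which holds MEF2 inactive, was at 11.01 and 11.07 in KO, against 11.60 and 11.56 in WT, and fell by 0.54 (adjusted p = 0.0233). Without WT 1 the calls of Crem and Mef2d were lost (adjusted p = 0.0883 and 0.0843, in ranges of 0.0194 to 0.138 and 0.0248 to 0.110 over their alternatives).

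Among direct partners of the 9 proteins, Nab1 and Nab2, the corepressors that bind EGR proteins and damp them, differed by 0.12 (adjusted p = 0.423) and -0.02 (95% interval -0.23 to 0.19, adjusted p = 0.902). The fourth EGR gene, Egr4, was looked for, but no identifier in the deposited table matched it. The IER relative Ier5l lay below the filter, at 8.97 and 8.88 in KO, against 8.76 and 8.75 in WT. The receptors RXR alpha and RXR beta, partners of NR4A1 and NR4A2 on DNA, differed by 0.30 (Rxra, adjusted p = 0.114) and -0.18 (Rxrb, adjusted p = 0.293). Of 7 genes for HSF1 and PP2A, the partners of IER5 and IER3, 1 rose and 6 did not pass, with a median of 0.20. Ppp2ca, the catalytic subunit of PP2A, was at 13.02 and 13.05 in KO, against 12.28 and 12.63 in WT, and rose by 0.58 (adjusted p = 0.0450). That call was lost with quantile normalization, with the log2 of the count plus 1 and without WT 1 (adjusted p = 0.0533, 0.0519 and 0.0971, in a range of 0.00554 to 0.169). Hsf1 differed by 0.05 (95% interval -0.16 to 0.25). Of 10 heat shock genes 2 were higher, 0 lower and 8 did not pass, with a median of 0.66. Of all genes tested, 4.69% were higher and 2.23% lower. Summed heat shock counts were 0.569% (KO A) and 0.323% (KO B), compared with 0.229% (WT 1) and 0.395% (WT 2), so WT 2 lay above KO B there, unlike in the 9 genes.

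Genes reported as targets of EGR and NR4A proteins, mostly in T cells and fibroblasts, gave 1 gene higher, 0 lower and 7 without a call, with a median of 0.13. Of all genes tested, 4.69% were higher and 2.23% lower. Cdkn1a, the cell cycle inhibitor p21, was at 10.42 (KO A) and 10.32 (KO B), compared with 9.28 (WT 1) and 9.76 (WT 2). It rose by 0.85 with an SE of 0.161 (adjusted p = 0.0359) and was 2.70-fold higher in counts. On the log2 of the count plus 1 its difference was 1.52 and the call was lost (adjusted p = 0.0519, in a range of 0.00105 to 0.140 over its alternatives). Nab2, itself an EGR target, is given above. The ubiquitin ligase gene Cblb differed by 0.18 (adjusted p = 0.321) and the costimulatory receptor Tnfrsf9 by 0.12 (adjusted p = 0.657). Tgfb1, the cytokine, and Icam1, an adhesion molecule, differed by -0.25 (adjusted p = 0.112) and -0.36 (adjusted p = 0.0884). Ccr7, the receptor through which dendritic cells reach lymph nodes, was at 10.70 (KO A) and 11.23 (KO B), compared with 10.70 (WT 1) and 10.97 (WT 2). The groups overlapped in Ccr7 (difference 0.13, 95% interval -0.31 to 0.57, adjusted p = 0.710).

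**Figure D4:**
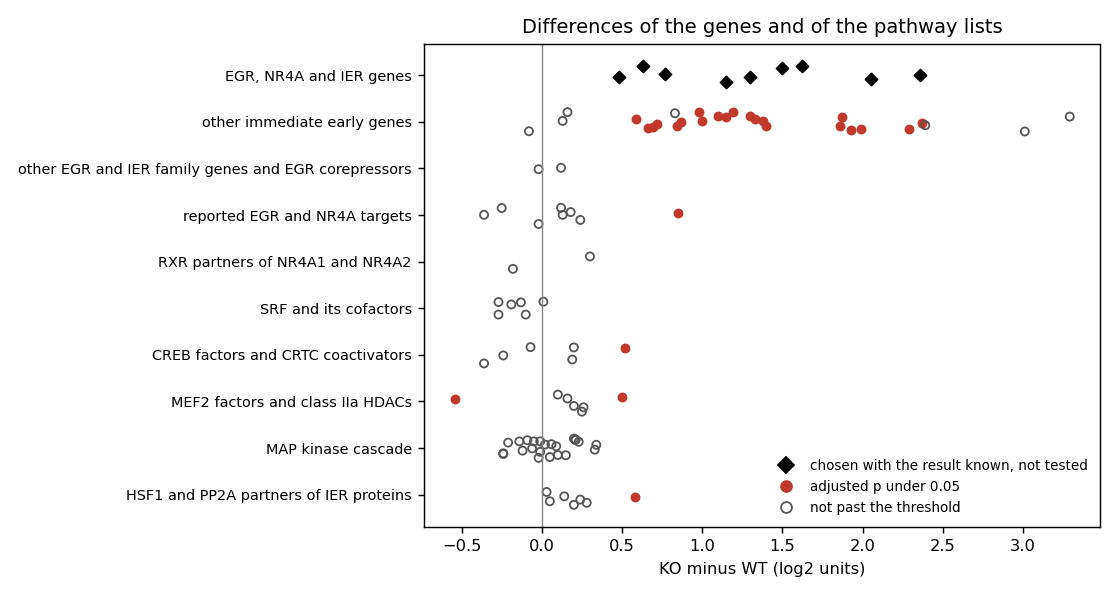
KO minus WT difference in log2 units (horizontal axis) of every tested gene of the lists (rows). The 9 genes are black diamonds with no test, filled red circles passed an adjusted p of 0.05 and open circles did not. The 9 genes and the other immediate early genes lie mostly above 0.5, and 0 of 23 MAP kinase cascade genes and 0 of 6 SRF genes passed.

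Other immediate early genes were higher together with the EGR, NR4A and IER genes. Of 28 tested, 21 were higher, 0 lower and 7 did not pass. Of all genes tested, 4.69% were higher and 2.23% lower. The list was chosen with earlier results of these data known, so nothing is read from its counts. Klf4, Fosl2, Ptgs2 and Csrnp1 are named for having its smallest p in this same limma fit. The median of the 28 was 1.17. With robust moderation 13 were higher. Klf4, a zinc-finger factor of myeloid cells, rose by 1.19 and Fosl2, an AP-1 subunit, by 1.38 (adjusted p = 0.0138 each). Ptgs2, the inducible cyclooxygenase, rose by 1.93 and Csrnp1, a nuclear factor induced by AXIN, by 1.1 (adjusted p = 0.0147 each). Fos was at 14.30 and 14.51 in KO, compared with 10.12 (WT 1) and 12.66 (WT 2), and Jun at 14.67 and 14.59 in KO, compared with 11.07 (WT 1) and 13.40 (WT 2). The WT libraries were farther apart in Fos (2.54) and Jun (2.32) than in any of the 9 genes (at most 1.25). With all libraries neither passed (adjusted p = 0.0567 for Fos and 0.0803 for Jun). Fos passed without WT 1 (adjusted p = 0.000608) or without WT 2 (1.32e-07), in a range up to 0.299, and Jun likewise (0.00103 and 2.39e-07, in a range up to 0.343), and the lone WT library was then assumed to vary like KO. The library order of the 9 genes was found in 21 of the 29 genes with a row, against 9.68% of all genes tested.

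The genes whose pattern over the 4 libraries was most like the mean of the 9 were Slc16a1, a lactate transporter, Socs3, an inhibitor of cytokine signalling, Nfkbid, a nuclear inhibitor of NF-kB, and Il2rb, a chain of the interleukin 2 receptor. They were followed by Ifrd1, Btg2, Sptb and Nxpe2, and Pearson's r ran from 0.9988 to 0.9997 over 4 libraries, which fall into 2 groups. Likeness at this level was common: of 318 other genes that spanned at least 1 log2 unit, 171 had an r of at least 0.95. The 9 genes themselves reached 0.9665 (Ier3) to 0.9985 (Egr1) with the mean they belong to. Socs3 was at 11.67 and 11.82 in KO, against 10.64 and 11.03 in WT, and Il2rb at 12.29 and 12.48 in KO, against 10.94 and 11.44 in WT. Sptb, which encodes a red cell spectrin, was at 12.57 and 13.09 in KO, against 10.44 and 11.34 in WT.

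RNA of several other blood cells was also higher in KO, but of the marker lists only the erythroid one had every gene in the library order of the 9. The 9 genes together made up 0.132% (KO A) and 0.160% (KO B) of counts, compared with 0.0421% (WT 1) and 0.0641% (WT 2). All 12 erythroid markers had the same library order, against 9.68% of all genes tested. Their sum was 0.151% (KO A) and 0.229% (KO B), compared with 0.0136% (WT 1) and 0.0664% (WT 2). Of 11 erythroid markers tested 6 were higher, against 4.69% of all genes tested. The most abundant, Hba-a2 and Hbb-bs, differed by 2.46 and 2.45 (adjusted p = 0.0702 and 0.0613). These globin genes have near-identical copies, so their values are uncertain. NK cell markers were higher in 10 of 11 and macrophage markers in 5 of 11, where 4.69% of all genes tested were higher. NK marker sums were 0.0533% and 0.0655% in KO, against 0.0313% and 0.0306% in WT, and macrophage marker sums were 0.0766% and 0.0987% in KO, against 0.0491% and 0.0444% in WT. The granzyme gene Gzma rose by 1.16 and the macrophage lipoprotein gene Apoe by 0.99 (adjusted p = 0.0147 and 0.0138), while Klrk1 and Adgre1 differed by 0.14 and 0.33 (adjusted p = 0.5 and 0.168).

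The 11 monocyte markers summed to 0.588% and 0.569% in KO, against 0.415% and 0.342% in WT. For the marker counts that follow, the shares of all genes tested were 4.69% higher and 2.23% lower. Neutrophil markers were higher in 3 of 12, with sums of 0.813% and 0.779% in KO, compared with 0.748% (WT 1) and 0.286% (WT 2), and S100a9 and Ltf differed by 0.97 and 0.67 (adjusted p = 0.223 and 0.349). T cell markers were higher in 2 of 6 tested (Lck by 0.77, adjusted p = 0.0206; Cd3d differed by 0.24, adjusted p = 0.221). B cell markers were higher in 1 of 9 (Ighm by 0.37, adjusted p = 0.0465; Cr2 differed by 0.16, adjusted p = 0.710), and platelet markers in 0 of 1, with Itga2b differing by 0.33 (adjusted p = 0.124) and Gp9 below the filter. Plasmacytoid dendritic cell markers gave 0 of 8, with Tcf4 and Runx2 differing by 0.19 and 0.35 (adjusted p = 0.682 and 0.308). Their sum was 0.143% (KO A) and 0.0801% (KO B), compared with 0.0803% (WT 1) and 0.101% (WT 2), so KO A stood apart in these markers. Conventional dendritic cell markers were higher in 1 and lower in 10 of 16, with sums of 1.43% and 1.36% in KO, against 1.94% and 1.97% in WT, and H2-Ab1 fell by 0.43 with an adjusted p just under the threshold. No marker of these lists with a row in the table was at 0 counts in any library. The marker lists were also chosen with earlier results of these data known. The part of these cells in the differences of the 9 genes was not tested.

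**Figure D5:**
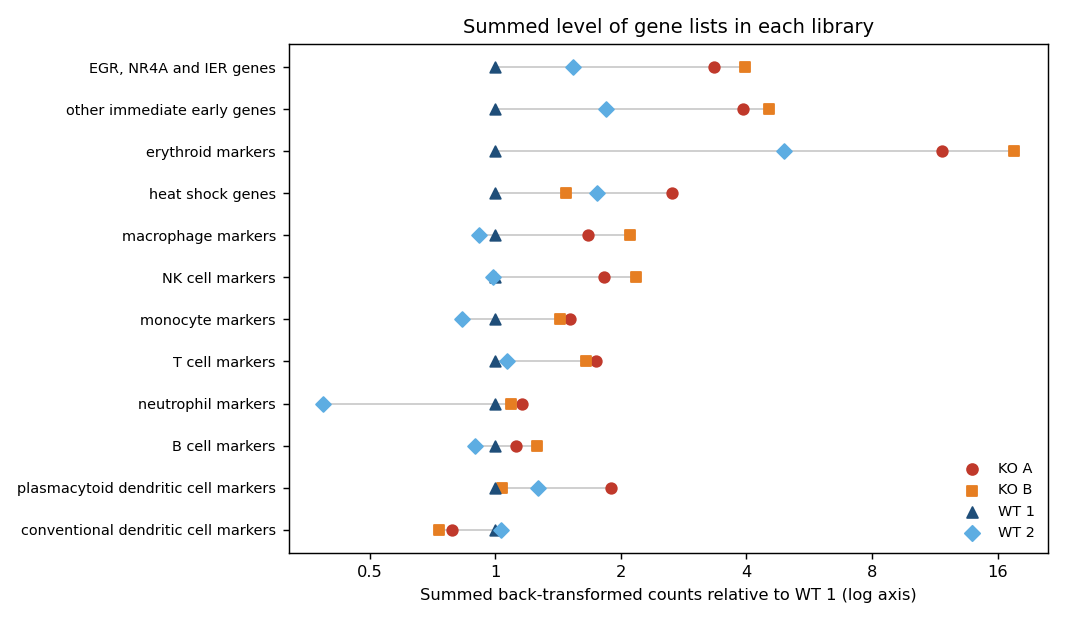
Summed back-transformed counts of each gene list relative to the WT 1 library (horizontal log axis), 1 marker per library. The 9 genes stand at 3.35 (KO A) and 3.97 (KO B), compared with 1 (WT 1) and 1.54 (WT 2); the erythroid list has the same order with a wider range, at 11.8 (KO A), 17.5 (KO B), 1 (WT 1) and 4.93 (WT 2), and the conventional dendritic cell list lies below 1 in both KO libraries.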

How the data were processed

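All 4 libraries of mouse splenic dendritic cells, 2 KO and 2 WT, were read from 1 deposited table. The submitters' processing notes name Salmon 1.10.1, DESeq2 and the build GRCm39 without saying which step each served. The authors deposited log2 values that are variance-stabilized, per the file's name, and scaled between libraries. The annotation behind the table is not given in the sources used here, and read depth per library is unknown. Symbols came from GENCODE M21 (17289 of 17300 identifiers matched, 11 did not). Counts were obtained by undoing the transform from the shared lowest value of 8.04. Because low values are compressed, log2 differences understate folds of weakly expressed genes.

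The 2 groups were fitted with limma 3.58.1 (R 4.3.3), using an intensity trend, a two-sided test, 6.48 total degrees of freedom and Benjamini-Hochberg adjustment over 11864 genes whose mean exceeded the lowest value by 1 log2 unit or more. The threshold was an adjusted p of 0.05, and the script was tested on simulated data. The KO columns carry numbers other than the KO titles, so they were taken only as the group and called KO A and KO B.

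The 9 genes and the lists were chosen with earlier results of these data known. Named genes were the 9, all genes of the corepressor, SRF, RXR and target lists, members past the threshold of other regulator lists, Fos, Jun and the 4 other immediate early genes with the smallest p, the 2 highest of each marker list, Siglece and the 8 genes most alike; 1 gene of the target list is not reported here. Alternatives were other filters, quantile normalization, no trend, robust moderation, the log2 of the count plus 1 and leaving out each library.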

Additional observations from a re-analysis of the deposited data

How the results depend on the processing

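Each group had 2 libraries, so leaving out 1 leaves a single library that is assumed to vary like the other group. The median difference of the 9 genes was 1.30, was 1.06 to 1.54 with 1 library left out, and was 1.79 on the log2 of the count plus 1, a scale that does not compress low values. On that scale 7 of the 9 differences moved by more than the spread between replicates. Such a move cannot be seen when 1 of 2 libraries is left out, since the shift is then never above that spread. Of the 9 genes, 2 lay below the filter of 2 log2 units. Genes past the threshold numbered 822, and 0 to 820 with 1 library left out (0 without KO A, 3 without KO B). Of the regulator, partner and target genes 5 passed in limma (19 at an unadjusted p under 0.05). With the filter of 2 log2 units 3 passed, and on the log2 of the count plus 1 also 3. These calls were lost when either KO library was left out, and those of Crem, Mef2d and Ppp2ca also without WT 1. With all libraries, the share of all genes at an unadjusted p under 0.05 is not given here, so nothing is read from the 19. With the filter of 2 log2 units Crem and Cdkn1a were no longer among the genes tested, and Mef2d, Hdac9 and Ppp2ca stayed past the threshold. The cause of the other changes was not tested. No paired analysis was possible because the KO columns carry numbers that match neither KO title, so they share no replicate number with the WT columns. The depth in reads of each library is unknown, which limits what can be said of genes near the lowest value, such as Egr2, Ier3 and Nr4a2 in WT 1.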

Other observations

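Some other immediate early genes did not pass the threshold, and 3 of them are given here, chosen after their values were seen for their small differences. Myc, the growth regulator, was at 10.30 (KO A) and 10.23 (KO B), compared with 10.11 (WT 1) and 10.17 (WT 2), a difference of 0.13 (95% interval -0.09 to 0.34, adjusted p = 0.431 in limma). Gadd45b, a stress gene of MAP kinase signalling, was at 10.68 and 10.61 in KO, against 10.49 and 10.48 in WT (difference 0.16, 95% interval -0.05 to 0.37, adjusted p = 0.314). Arc, a neuronal gene that is also known from migrating dendritic cells in mice, was at 9.40 and 9.67 in KO, against 9.53 and 9.69 in WT (difference -0.08, 95% interval -0.36 to 0.21, adjusted p = 0.749). In Arc the groups overlapped, and in Myc and Gadd45b they did not.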
